A study of Mus musculus with 8 samples.

Results

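The immediate-early genes followed here are Fos, Fosb, Jun, Junb, Jund, Egr1, Ier2, Ier3, Dusp1 and Zfp36. Their members were taken as every probe set of the deposited table that is annotated to 1 of these genes alone and is not listed at 0 on all arrays. All 10 genes were measured, on 12 probe sets (2 each for Jun and Jund, 1 for each other gene), of 10720 genes and 24404 probe sets tested. The samples were LSK cells from mouse bone marrow (replicates called KO 1 to KO 4 and control 1 to control 4), hybridised to 4 arrays for mice in which Msi2 was conditionally deleted (Msi2 KO) and 4 for control mice labelled WT. LSK marks marrow cells without lineage antigens but with Sca-1 and Kit on their surface, a fraction of blood stem cells and early progenitors. Msi2 codes for Musashi-2, which binds RNA. The promoter that drives the deletion, the time after it, and the age and strain of the mice are not given in the sources used here.

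Immediate-early genes are switched on within minutes of a growth factor, cytokine or stress signal, without new protein synthesis. MAP kinases activate serum response factor with its ETS partners and CREB on their promoters, and the mRNAs are short-lived. FOS, FOSB, JUN, JUNB and JUND pair to form the transcription factor AP-1, EGR1 is a zinc finger transcription factor, and DUSP1 and ZFP36 end the response, by removing phosphate from MAP kinases and by directing AU-rich mRNAs to decay. In blood stem cells, Egr1 and JunB are known from mouse mutants to restrain proliferation.

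The stretches before the start of 5 members are shown. Ier3 differed most between the groups among the members, and Fos, Dusp1, Jun and Zfp36 had values on the 8 arrays close to those of another member and hold a motif marked here. Jund, nearer still to Zfp36, and Junb held none of the marked motifs. Each runs 5′ to 3′ over the 250 bases before the start site, from RefSeq (GRCm38.p6). 8 members matched that table (the others were Egr1 and Ier2). Capitals mark exact matches, on either strand, to the letters of the CRE (TGACGTCA, bound by CREB and ATF factors) or its wider form TGACNTCA, which contains it, to the AP-1 site TGANTCA, to the CArG box of serum response factor, to the kappaB motif, or to TATAAA.
Fos, chr12:85473640-85473889, plus strand: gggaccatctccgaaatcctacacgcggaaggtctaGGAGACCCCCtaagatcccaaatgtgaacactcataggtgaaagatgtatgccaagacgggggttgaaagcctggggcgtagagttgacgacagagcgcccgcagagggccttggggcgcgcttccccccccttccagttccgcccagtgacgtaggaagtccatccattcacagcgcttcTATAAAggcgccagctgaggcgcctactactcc
Dusp1, chr17:26508473-26508722, minus strand: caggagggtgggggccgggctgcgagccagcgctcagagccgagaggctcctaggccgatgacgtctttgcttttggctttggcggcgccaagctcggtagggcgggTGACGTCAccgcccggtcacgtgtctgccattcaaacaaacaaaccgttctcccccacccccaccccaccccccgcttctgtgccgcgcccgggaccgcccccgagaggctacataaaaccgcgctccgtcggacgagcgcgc
Jun, chr4:95052223-95052472, minus strand: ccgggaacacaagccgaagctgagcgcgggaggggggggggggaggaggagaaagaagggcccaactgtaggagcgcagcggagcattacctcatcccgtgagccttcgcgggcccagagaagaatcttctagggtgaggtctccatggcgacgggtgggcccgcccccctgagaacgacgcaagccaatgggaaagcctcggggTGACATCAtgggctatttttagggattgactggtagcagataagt
Zfp36, chr7:28379229-28379478, minus strand: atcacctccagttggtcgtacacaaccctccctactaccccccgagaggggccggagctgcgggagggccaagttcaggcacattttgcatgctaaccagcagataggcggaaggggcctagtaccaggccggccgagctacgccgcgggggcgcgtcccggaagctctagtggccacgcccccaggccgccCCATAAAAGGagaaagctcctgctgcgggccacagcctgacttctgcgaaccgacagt
Ier3, chr17:35821463-35821712, plus strand: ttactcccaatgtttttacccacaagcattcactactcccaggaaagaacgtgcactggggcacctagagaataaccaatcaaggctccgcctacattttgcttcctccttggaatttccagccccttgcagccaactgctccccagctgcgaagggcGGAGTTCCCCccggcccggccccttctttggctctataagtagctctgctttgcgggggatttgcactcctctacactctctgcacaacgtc
The Dusp1 stretch held the full CRE at -143 to -136, counted from -1 as the base before the start, and 1.55% of all 32851 stretches of this length in the table held it. Jun held TGACATCA, a form of TGACNTCA, at -45 to -38 (7.49% of all stretches hold TGACNTCA). Zfp36 held a CArG box at -58 to -49 (1.47% of all), and Fos held TATAAA at -33 to -28 (12.4% of all). The kappaB motif stood in Fos, Fosb and Ier3, that is in 3 of 8 members, against 7.25% of all stretches, and the AP-1 site TGANTCA in 0 of 8, against 6.75%. The GC box GGGCGG, which can overlap these motifs and is not capitalised, was found in 6 of 8 members and in 32.7% of all stretches. These matches describe letters only.

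No immediate-early gene passed the adjusted threshold between the groups, and the members did not move as a block. 8 of the 12 probe sets averaged lower in KO and 4 higher, and the median difference of the 10 genes, each on its brightest probe set, was -0.12 on the log2 scale, against 0.00 over all genes tested. Limma called 0 of 12 at an adjusted p under 0.05, as it called 0 of 24404 probe sets (0%), and the smallest adjusted p of a member was 0.354. At an unadjusted p under 0.05 there were 3 of 12, namely Ier3 and the dimmer Jun probe set on the lower side and Junb on the higher, against 9.72% of all probe sets. All KO arrays lay below all controls for 2 of 12 probe sets (2.96% of all) and above them for 0 of 12 (3.12% of all), so that 2 of 12 did not overlap in either direction (6.09% of all). Values are log2 signals per probe set as deposited, differences are KO minus control with the 95% interval of limma, and the levels of different probe sets are not comparable.

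The arrays set the frame for these values. Medians of the tested probe sets lay between 7.03 and 7.07. The brightest Msi2 probe set read 11.36, 11.20, 8.73 and 10.38 on KO 1 to KO 4, against 11.40 to 11.65 on the controls, and the Msi2 probe set on which the groups lay furthest apart read 10.02, 10.16, 7.93 and 9.46, against 10.66 to 11.17. All KO arrays lay below all controls on 4 of 5 Msi2 probe sets, and the differences ran from -1.44 to -0.95. On the brightest it was -1.12, with a limma adjusted p of 0.442 in the fit by gene. The fit thus did not call the deleted gene itself, which limits what an absence of calls can mean. KO 3, the array with the lowest Msi2, stood apart. Its score on principal component 1, which held 28.6% of the variance, was 69.4, while all other arrays lay between -39.4 and 17.0. Its actin probe sets differed most between the 3′ and the 5′ end (by 0.29, against -0.12 to 0.13 on the rest), while for Gapdh it read 1.70, within the controls (1.64 to 1.73), and KO 4 (1.35) and KO 2 (1.85) were the extremes. It was also the lowest array for 7 of the 8 LSK markers measured (all but Kit), whose mean deviation from the control mean was -1.56 there and between -0.12 and 0.13 on the other arrays. Ly6a, the Sca-1 gene, has no probe set of its own in the annotation used, while Kit was present, at 8.82 to 9.19 on KO arrays and 8.39 to 9.16 on controls. Xist was low on KO 1, KO 2 and control 1 (4.80 to 5.55) and high on the others (11.92 to 12.51), so male and female mice were spread unevenly over the groups. Msi2 KO 3 and the Xist level therefore stand beside the results where they matter.

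**Figure D1:**
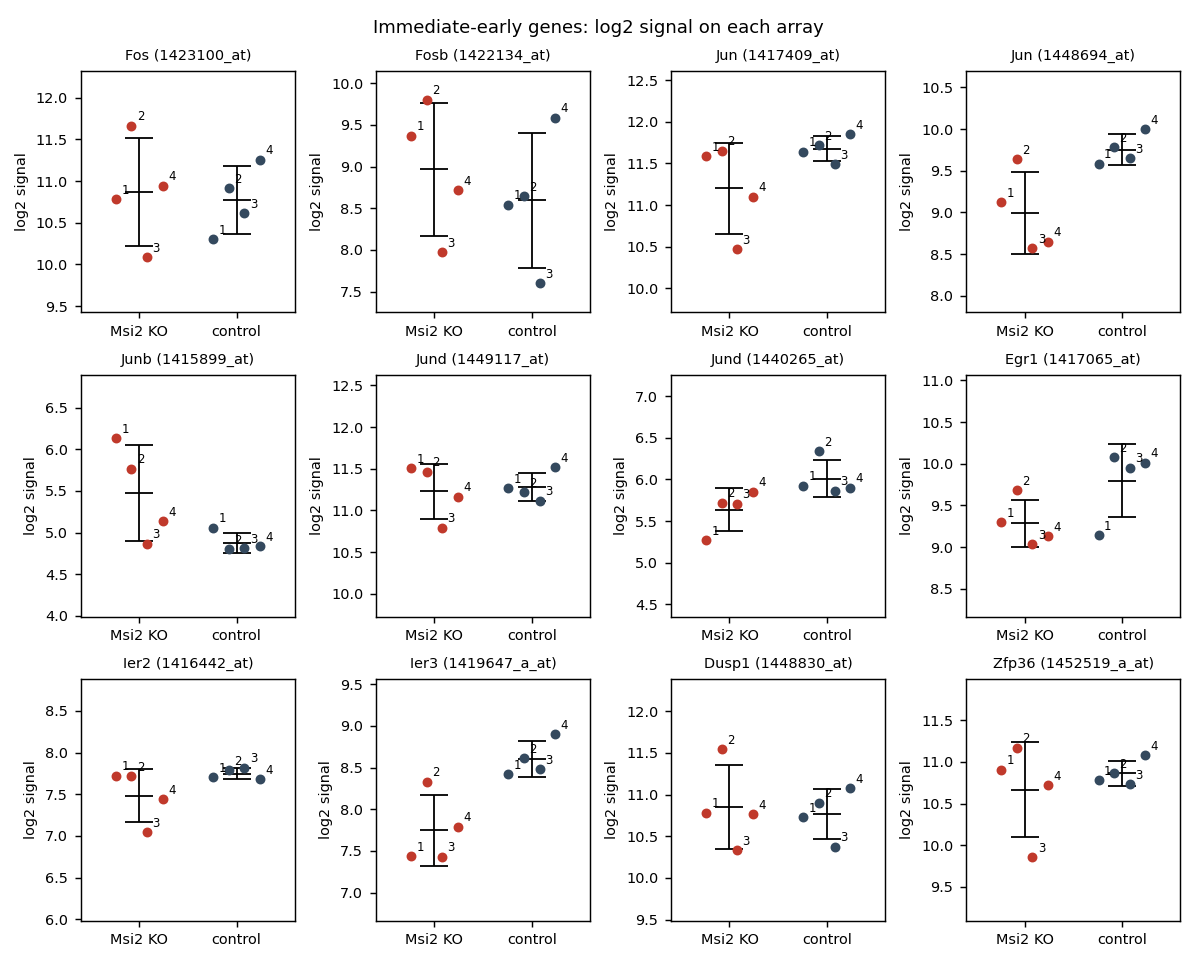
Log2 signal of each of the 12 member probe sets (vertical axes, each spanning the same width) on the 4 Msi2 KO arrays (red, left) and the 4 control arrays (dark blue, right). Points carry their replicate number, and bars give the mean and SD. Ier3 lies below every control on all 4 KO arrays, Fos and Dusp1 overlap throughout, and KO 3 is low in most panels.

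Ier3 showed the greatest difference among the members. Ier3 encodes a stress-induced regulator of survival and ERK signalling. Its signal was 7.44, 8.33, 7.43 and 7.79 on KO 1 to KO 4, against 8.42, 8.61, 8.48 and 8.90 on control 1 to control 4. All 4 KO arrays lay below all 4 controls, KO 2 only narrowly. The difference was -0.86 (-1.35 to -0.36), or 1.81-fold lower in KO, with a limma adjusted p of 0.354 and a two-sided exact permutation p of 0.0286, the smallest that 4 arrays against 4 can give. It was -0.75 without KO 3, -1.05 within the arrays with high Xist and -0.53 within those with low Xist. KO 1 and KO 3 were lowest alike, so the low values were not those of KO 3 alone. The probe set, 1419647_a_at, can bind several transcripts of its gene.

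The Jun family, which supplies the obligate partners of FOS in AP-1, had lower means in KO on both Jun probe sets, a higher mean for Junb, and a split picture for Jund. Jun (1417409_at) was 11.59, 11.65, 10.47 and 11.10 on KO 1 to KO 4, against 11.64, 11.72, 11.49 and 11.85 on control 1 to control 4. KO 3 and KO 4 were below every control, while KO 1 and KO 2 lay among them. The difference was -0.47 (-1.04 to 0.10; limma adjusted p 0.583, two-sided exact permutation p 0.171), and -0.23 without KO 3. The dimmer Jun probe set, 1448694_at, was 9.12, 9.64, 8.57 and 8.65 on KO 1 to KO 4, against 9.59, 9.78, 9.65 and 10.0005 on control 1 to control 4. There 3 of 4 KO arrays lay below every control, and KO 2 lay just above the lowest control. Its difference was -0.76 (-1.30 to -0.22), or 1.69-fold lower, with a limma adjusted p of 0.411 and a two-sided exact permutation p of 0.0571, and it was -0.62 without KO 3. The pair of Jun probe sets thus shared a direction and KO 3 and KO 4 as the lowest arrays, and differed on KO 1.

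Junb encodes an AP-1 subunit that restrains proliferation of myeloid progenitors. Its signal was 6.13, 5.77, 4.87 and 5.14 on KO 1 to KO 4, against 5.06, 4.80, 4.81 and 4.83 on control 1 to control 4. KO 1, KO 2 and KO 4 lay above every control, and KO 3 among them. The difference was 0.60 (0.01 to 1.19; limma adjusted p 0.509, two-sided exact permutation p 0.0571). It was 0.80 without KO 3, 0.38 without KO 1, 0.89 within the arrays with low Xist and 0.19 within those with high Xist. The probe set is dim, at the 21.9 percentile of all tested probe sets by level, so a fold is not given. Junb and Ier3 were the least alike of all pairs of members: their deviations from the control mean differed by 1.12 (root mean square over the 8 arrays).

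Jund encodes the AP-1 subunit least dependent on stimulation. On its bright probe set, 1449117_at, the signal was 11.50, 11.46, 10.79 and 11.16 on KO 1 to KO 4, against 11.26, 11.22, 11.12 and 11.52 on control 1 to control 4. The groups overlapped, with only KO 3 outside the controls, and the difference was -0.05 (-0.47 to 0.37; limma adjusted p 0.960), which turned to 0.10 without KO 3. The dim probe set 1440265_at, at the 30.7 percentile by level, was 5.27, 5.72, 5.71 and 5.85 on KO 1 to KO 4, against 5.92, 6.34, 5.87 and 5.90 on control 1 to control 4. All KO arrays lay below the controls there, KO 4 by a narrow margin, with a difference of -0.37 (-0.76 to 0.02; limma adjusted p 0.536, two-sided exact permutation p 0.0286). The probe sets of Jund therefore disagree on whether the groups separate.

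**Figure D2:**
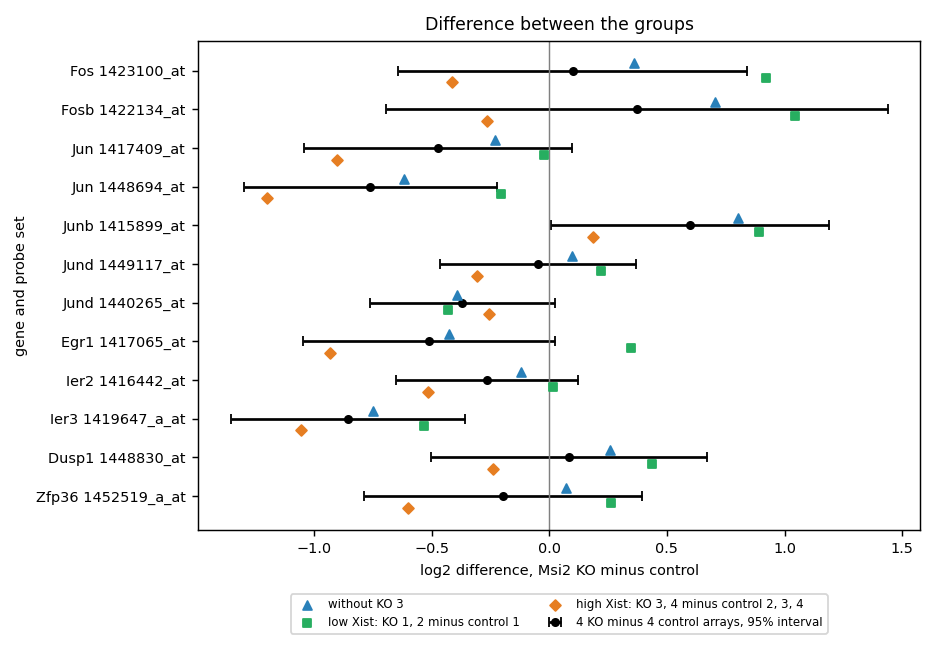
Log2 difference, Msi2 KO minus control (horizontal axis), for each member probe set. Black points with 95% intervals use all 8 arrays, triangles leave out KO 3, squares compare KO 1 and KO 2 with control 1 (low Xist), and diamonds compare KO 3 and KO 4 with the other controls (high Xist). Ier3 is below 0 in every setting shown, Junb is above 0 in each, and the Fos, Fosb, Dusp1 and Zfp36 points fall on both sides.

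Fos and Fosb, the inducible FOS-family subunits, varied widely between mice of 1 group and did not separate the groups. Fos was 10.78, 11.67, 10.08 and 10.94 on KO 1 to KO 4, against 10.30, 10.91, 10.61 and 11.26 on control 1 to control 4. The highest and the lowest array of all 8 were both KO arrays, KO 2 and KO 3. The difference was 0.10 (-0.64 to 0.84; limma adjusted p 0.955). It was 0.36 without KO 3 and -0.17 without KO 2. Fosb was 9.37, 9.80, 7.97 and 8.72 on KO 1 to KO 4, against 8.54, 8.65, 7.60 and 9.59 on control 1 to control 4. KO 2 was again the highest array, but control 3 the lowest, and the difference was 0.37 (-0.69 to 1.44; limma adjusted p 0.848, two-sided exact permutation p 0.514). It was 0.70 without KO 3 or without control 4, and 0.04 without control 3. The SD of Fosb was 0.80 in KO and 0.81 in controls (n = 4 each), above that of 95.6% and 98.2% of genes in these groups.

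Egr1, the zinc finger factor, was 9.30, 9.68, 9.03 and 9.13 on KO 1 to KO 4, against 9.14, 10.07, 9.95 and 10.01 on control 1 to control 4. Every KO array lay below control 2, control 3 and control 4, and control 1 lay with the KO arrays. The difference was -0.51 (-1.05 to 0.02; limma adjusted p 0.531, two-sided exact permutation p 0.0857). Without control 1 it was -0.73, with a limma adjusted p of 0.407. Control 1 is the only male control by Xist, and within the arrays with low Xist the difference was 0.35 (KO 1 and KO 2 against control 1), against -0.93 within those with high Xist. The gap between these differences was -1.28, with an unadjusted limma p of 0.00306 and an adjusted p of 0.517 over all probe sets. The same gap was below 0 for 11 of 12 member probe sets, among them Fos (-1.33) and the dimmer Jun probe set (-0.99). It was above 0 for the dim Jund probe set (0.17). The share of all probe sets with such a gap was not computed, so this count is not read as a trait of the members. These gaps rest on the same arrays, so they do not support each other. The low-Xist side of each gap holds 1 control. For Egr1, the sex of the mice and array control 1 cannot be told apart.

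Ier2, a nuclear immediate-early protein, was 7.72, 7.72, 7.04 and 7.44 on KO 1 to KO 4, against 7.70, 7.79, 7.82 and 7.68 on control 1 to control 4. KO 3 and KO 4 lay below the narrow range of the controls (SD 0.07, n = 4), and KO 1 and KO 2 lay inside it. The difference was -0.26 (-0.65 to 0.12; limma adjusted p 0.650, two-sided exact permutation p 0.171), and -0.12 without KO 3.

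The feedback genes Dusp1 and Zfp36 did not separate the groups either. Dusp1, the MAP kinase phosphatase, was 10.78, 11.54, 10.33 and 10.76 on KO 1 to KO 4, against 10.73, 10.90, 10.38 and 11.08 on control 1 to control 4. As for Fos, KO 2 was the highest of all arrays and KO 3 the lowest, and the difference was 0.08 (-0.50 to 0.67; limma adjusted p 0.949), against -0.14 without KO 2. Zfp36, which encodes the mRNA decay factor tristetraprolin, was 10.91, 11.17, 9.86 and 10.72 on KO 1 to KO 4, against 10.78, 10.86, 10.73 and 11.08 on control 1 to control 4. KO 3 was far below all other arrays and KO 2 the highest. The difference was -0.20 (-0.79 to 0.39; limma adjusted p 0.854), and it turned to 0.07 without KO 3.

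The pattern per array was shared by many members and did not divide the arrays cleanly by genotype. KO 3 was the lowest of all 8 arrays for 9 of 12 member probe sets, against 18.7% of all tested probe sets, and lay below every control for 10 of 12, against 26.2%. KO 2 was the highest for 4 of 12, against 11.99% of all probe sets, and so was control 4 (10.6%). The mean deviation of the 10 genes from their control mean was 0.05, 0.38, -0.71 and -0.21 on KO 1 to KO 4, against -0.14, 0.06, -0.20 and 0.28 on control 1 to control 4. KO 2 and KO 3 thus stood at opposite ends, with the controls between them, and KO 4 lay barely below control 3. KO 3 and KO 4 also had the lowest Msi2 on its brightest probe set (8.73 and 10.38, against 11.36 and 11.20 on KO 1 and KO 2). Both are arrays with high Xist, unlike KO 1 and KO 2. Whether the members follow the degree of Msi2 loss was not tested. For 8 of the 10 genes the SD was greater in KO than in controls, which held for 61.5% of all genes. Without KO 3, 6 of the 10 genes were higher in KO, and their median difference was 0.08, against -0.12 with it. Of the LSK markers 7 of 8 measured were lower in KO, none of those with a probe set being at 0, and their mean level was 7.56 to 9.19 on KO arrays, lowest on KO 3, against 9.005 to 9.25 on controls. Their median difference was -0.51, and -0.05 without KO 3. The erythroid markers were higher for 10 of 10 measured, with Hba-a1 and Alas2 at 0, and their mean level was 7.04 to 8.79 on KO arrays, highest on KO 3, against 6.19 to 7.15 on controls. The macrophage and monocyte markers were higher for 7 of 9, with Itgam, C1qa and Cd14 at 0, at 6.92 to 8.27 on KO arrays, lowest on KO 3, against 6.04 to 7.60 on controls. The mast cell and basophil markers were higher for 3 of 4, with Gzmb and Cma1 at 0. Their mean level was 5.68 to 7.15 on KO arrays, highest on KO 3, against 4.70 to 5.68 on controls. Their median difference of 1.63 was the greatest of the marker lists (1.34 without KO 3). Of these markers, Fcer1a, a chain of the IgE receptor, and Cpa3, a mast cell protease, were chosen after their values were seen. Both lay above all controls on all KO arrays (limma adjusted p 0.176 and 0.240). Ms4a2 was also higher in KO by mean, but its groups overlapped. Mcpt8 went the other way, with overlap, at a difference of -0.496, and of -0.768 without KO 3. In these samples of many cells, fewer cells of a type and less RNA per cell cannot be told apart, and the part of these markers in the low values of KO 3 was not tested.

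**Figure D3:**
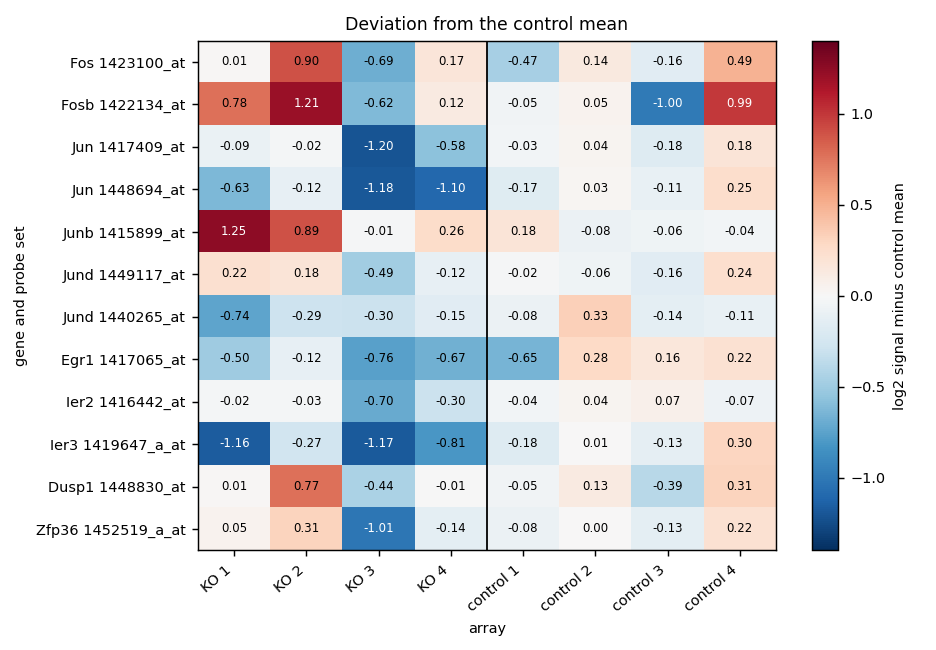
Log2 signal minus the control mean, for each member probe set (rows) on each array (columns, Msi2 KO left of the line and control right of it). Red is above the control mean and blue below. The KO 3 column is blue for all 12 probe sets (near 0 for Junb), whereas Fos, Fosb and Dusp1 are red on KO 2 and control 4.

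Each member was set against the others array by array. By the root mean square difference of deviations over the 8 arrays, where a smaller value is closer, Fos and Dusp1 were each other's nearest member (0.22), and Fosb was nearest to Dusp1 (0.46). Jun was nearest to Zfp36 (0.21), Jund to Zfp36 (0.20) and Ier2 to Jund (0.21), all of them lowest on KO 3. Ier3 was nearest to Egr1 (0.36), and Junb, nearest to Jund at 0.51, was almost as far from a flat line at the control mean (0.56). Jund too lay about as near to that line (0.23) as to its nearest member. For 10 of 10 members a gene outside the members was nearer than any member, at 0.05 to 0.29. Far more genes lie outside the members than among them, so this cannot decide whether the members form sets. Beyond the members, the genes closest to their mean deviation were Plp2 (0.11), Irak1 (0.14), Sh2b3 (0.14), Map1lc3b (0.14) and Zbed3 (0.14), of 5352 genes searched, whose median was 0.43. Sh2b3 encodes the adaptor LNK, a brake on cytokine receptor signalling in blood stem cells. Among related genes, and chosen after its values were seen, Klf6 was the closest to the mean deviation (0.16). Its deviations were 0.25, 0.58, -0.94 and -0.15 on KO 1 to KO 4, against -0.17, -0.03, 0.01 and 0.20 on control 1 to control 4. Klf4, also chosen afterwards, was the nearest of all genes to Fosb (0.29), and both were high on KO 2 and control 4 and low on KO 3 and control 3.

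Related genes of the response were counted in lists, with 1 probe set a gene. Limma called 0 genes in any list, as among all 10720 genes (0%), and at an unadjusted p under 0.05 it gave 11.4% of all genes, 5.74% higher and 5.66% lower. Of the other AP-1 and bZIP partners, 4 of 10 measured genes were higher and 6 lower (median -0.04). Atf7 (0.67) and Jdp2, a repressor of AP-1 (-0.39), had the smallest p, and Fosl1, Batf3 and Atf3 were listed at 0. Of the other immediate-early transcription factors, 8 of 13 were higher (median 0.06), and 10 of 13 without KO 3 (median 0.19), with Id2 (0.38, with both groups under 5 by mean) and Klf2 (-0.49, and -0.24 without KO 3) nearest to the threshold, while Egr2, Egr3, Egr4 and Nr4a3 were listed at 0. On the array KO 3 the mean deviation of this list was -0.43 and on KO 2 it was 0.38, against -0.71 and 0.38 for the members.

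Of the other immediate-early effectors, 10 of 13 were lower (median -0.07), but without KO 3 only 7 of 13 (median -0.01). Cdkn1a, the cell cycle inhibitor p21, was 7.28, 7.79, 7.41 and 7.51 on KO 1 to KO 4, against 8.01, 8.60, 8.31 and 7.92 on control 1 to control 4. All KO arrays lay below the controls, at a difference of -0.71 (-1.13 to -0.30; limma adjusted p 0.276), and of -0.68 without KO 3. Pim1, a kinase gene of cytokine signalling, differed by -0.47 (-0.29 without KO 3; limma adjusted p 0.421), also without overlap. The feedback inhibitors of MAP kinases had 8 of 13 lower (median -0.05), whereas without KO 3 it was 6 of 13 (median 0.07). The list holds Dusp4, a nuclear ERK phosphatase (-0.69, limma adjusted p 0.299), with all KO arrays below the controls. Spry4 was at 0.45, and at 0.29 without KO 3 (dim, 4.83 in KO and 4.38 in controls by mean). The MAP kinase cascade with the SRF and CREB regulators was divided, 13 higher and 14 lower of 27 (median -0.02), with Map2k2, the kinase MEK2, at 0.39 and Rps6ka5, a kinase of CREB and histone H3, at -0.46.

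For mRNA decay, 10 of 15 genes of the ZFP36 family and its machinery were higher (median 0.04), and 8 of 15 without KO 3 (median 0.01). Zfp36l1, the paralog of Zfp36, was 8.11, 8.38, 8.74 and 8.08 on KO 1 to KO 4, against 7.14, 7.82, 7.72 and 7.72 on control 1 to control 4. Its KO arrays all lay above the controls, with a difference of 0.73 (0.27 to 1.19; limma adjusted p 0.293), while Dcp1a, of decapping, was at 0.35. Zfp36l1 was highest on KO 3, the array on which Zfp36 was lowest. Of the AU-rich cytokine mRNAs 12 of 15 were listed at 0, and of the 3 measured Ccl3 differed by -0.79 (dim, 4.33 in KO and 5.12 in controls by mean) and Csf1 by 0.48. The NF-kB feedback genes had 3 of 9 higher (median -0.19), whereas without KO 3 it was 6 of 9 (median 0.18), so the direction of the list rests on that array. Nfkbia, the inhibitor IkB-alpha, was 10.46, 10.35, 10.17 and 10.12 on KO 1 to KO 4, against 9.92, 9.84, 9.80 and 9.93 on control 1 to control 4. Its groups did not overlap, at a difference of 0.40 (0.12 to 0.69; limma adjusted p 0.324), and Tnfaip3, the deubiquitinase A20, was at 0.83 (limma adjusted p 0.376).

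Heat shock and stress genes were higher in KO for 14 of 16 measured members (12.5% were lower, against 49.6% of all genes). Their median was 0.19, against 0.00 for all genes, and 0 passed the adjusted threshold. At an unadjusted limma p under 0.05 there were 4 of 16, all higher, against 5.74% of all genes on the higher side. The 4 include Hspa1a and Hspa1b, whose probe sets may share signal, so they may not be separate calls. Hspa1b, the inducible chaperone of the HSP70 family, was 9.80, 9.77, 7.88 and 6.53 on KO 1 to KO 4, against 3.98, 4.04, 2.82 and 7.58 on control 1 to control 4. The groups overlapped through control 4 and KO 4 (limma adjusted p 0.287, two-sided exact permutation p 0.0571). The other 3 controls lie near the lowest value above 0 in the table (2.79) and were not shown to be above background, so no size of the difference is given, and the signal may be shared with a near-identical copy of the gene. Hsph1, an exchange factor of HSP70, differed by 0.77 (limma adjusted p 0.363). The list, Hspa1a and Hspa1b included, averaged 1.09, 0.78, 0.45 and 0.33 above the control mean on KO 1 to KO 4. On control 1 to control 4 it averaged -0.29, 0.03, -0.11 and 0.37. Hspa1a and Hspa1b raise the means of KO 1 to KO 3, so these means give no size for the other genes. Among controls, control 4 was the highest for the immediate-early genes. It was also the highest for the heat shock list, but there Hspa1a and Hspa1b weigh heavily. Hspa1a, chosen afterwards, read 5.77 on control 4, against 3.62 to 3.83 on the other controls. List means without Hspa1a and Hspa1b were not computed, so the rank of control 4 may not hold for the other genes of the list. KO 3, lowest of all for the immediate-early genes, lay above every control for the heat shock list with Hspa1a and Hspa1b included. What part the heat shock genes' difference has in the values of the members was not tested.

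**Figure D4:**
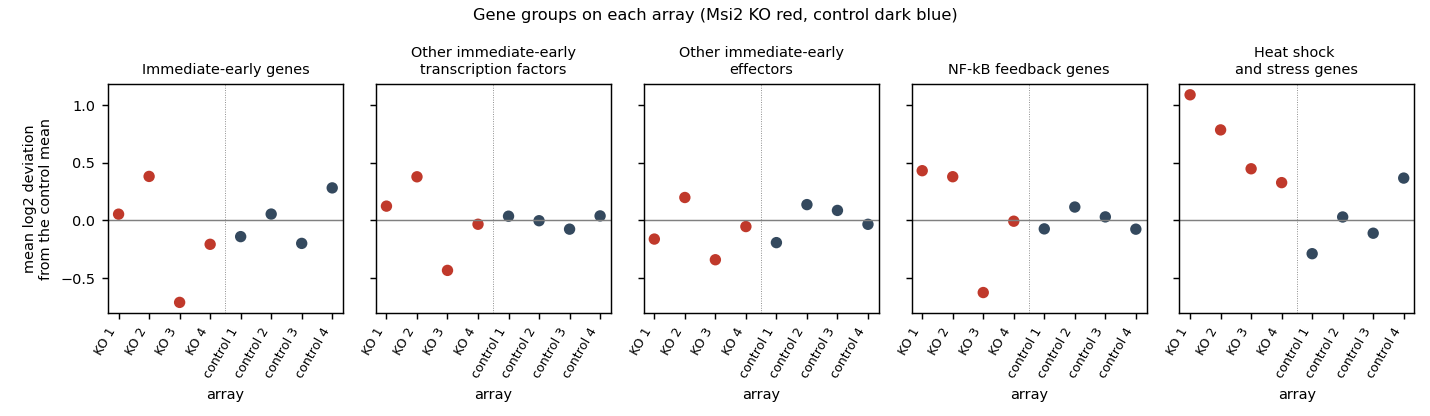
Mean log2 deviation from the control mean (vertical axis) of 5 gene groups on each array (horizontal axis), Msi2 KO arrays in red left of the dotted line and control arrays in dark blue right of it. KO 3 is lowest for the immediate-early genes (-0.71), the other immediate-early transcription factors (-0.43) and the NF-kB feedback genes (-0.62), but not for the heat shock and stress genes (0.45). The heat shock means include Hspa1a and Hspa1b, which weigh heavily in them.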

How the data were processed

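Biotin-labelled RNA of LSK cells was run on Affymetrix arrays, per the labels. The deposited table gives a log2 signal for each probe set, which the authors normalized with RMA, per the submitters' processing notes, which give no version. Above 0 the values ran from 2.79 to 14.17. Of 45101 probe sets, 20664 were 0 on all 8 arrays by a step not given in the sources used here, and were left out with 64 AFFX controls, some of them also at 0. 24404 were tested.

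Names came from the array's annotation, updated through gene IDs with a RefSeq table of GRCm38.p6, used for names: 34958 probe sets had 1 gene name (34754 through the ID), 932 several and 9211 none. A gene stood on its brightest probe set (10720 genes). Groups were compared with limma 3.58.1 (R 4.3.3; lmFit, eBayes, Benjamini-Hochberg over the whole table, threshold 0.05, two-sided). Every adjusted p is limma's. Exact permutation used all 70 assignments of arrays. Intervals cover 95%.

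The members and lists were chosen with earlier results of these data known. Named were all members, in each list the 2 genes of smallest p, and the 5 genes nearest to the members' mean deviation, with Msi2, Xist and markers as checks. Genes named beyond this rule are marked in the text as chosen afterwards. Alternatives were other normalizations, filters, variance models, array weights, the replicate block, Xist as covariate or stratum (split at a level of 8), left-out arrays, a 1.5-fold minimum and other choices of probe set. On simulated data of 24404 probe sets for KO against control, with 200 changed, the fit found 90 (45.0%) where the log2 change was 1 (6 false calls), 175 (87.5%) where it was 2 (11 false) and 192 (96.0%) where it was 3 (10 false). In the arrays measured here KO 3 stood apart, and the SD was greater in KO for 61.5% of all genes. Whether the shares found hold for such arrays was not tested. The number of arrays limits the precision. The labels number the samples within each group and the design speaks of 4 mice a group.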

Additional observations from a re-analysis of the deposited data

Results flagged for a closer look

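In 4 cases 1 array stood away from the other 3 of its group by more than Dixon's limit, and all 4 were control arrays. Junb read 5.06 on control 1, above the other controls, and the dim Jund probe set 1440265_at read 6.34 on control 2, also above the others. Egr1 read 9.14 on control 1, below the other controls, and so did Zfp36l1 at 7.14. 62 groups of 4 arrays were examined, and chance flags about 1 in 20, or 3.1 of them. Control 1 is the only control with low Xist, and 3 of the 4 cases concern it.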

How the results depend on the processing

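0 of the 12 member probe sets passed the adjusted threshold under every alternative run, left-out arrays included (0 to 0). The differences of Ier3, Junb, both Jun probe sets and the dim Jund probe set kept their direction under all of them. Leaving out 1 array at a time gave -0.17 to 0.36 for Fos, -0.14 to 0.26 for Dusp1, -0.14 to 0.10 for the bright Jund probe set and -0.37 to 0.07 for Zfp36, so their signs rest on single arrays (Fos without KO 2, -0.17, or control 1, -0.06; Dusp1 without KO 2, -0.14, or control 3, -0.05; Jund without KO 3, 0.10, or control 4, 0.03; Zfp36 without KO 3, 0.072). The median of the members ran from -0.26 to 0.084 over left-out arrays, the highest without KO 3. Within the arrays with high Xist it was -0.46, and Fos (-0.41), Fosb (-0.27) and Dusp1 (-0.24) turned to lower. Within those with low Xist it was 0.30, and bright Jund (0.22), Egr1 (0.35), Ier2 (0.016), Zfp36 (0.26) and the list gene Klf2 (0.11) turned to higher; this comparison holds 1 control, assumed to vary like the other arrays. Over all probe sets, 1 passed after repeated quantile normalization, 1 above the median level, 1 with array weights and 2 with an intensity trend, against 0 otherwise and 0 to 1 over left-out arrays. Over all genes, 5 passed with Xist as a covariate and 1 within low Xist, with 0 to 1 over left-out arrays (1 without KO 1). The cause was not tested. With the replicate block, 0 probe sets and 0 genes passed. Correlations of same-numbered arrays ran from -0.12 to 0.13, and 1 of 4 KO arrays correlated best with its own number. No pairing by number was thus seen, though this check cannot exclude that same-numbered samples were handled together. Ier3 and Zfp36 could not be given without probe sets ending in _s_at, _x_at or _a_at.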
